A study of Homo sapiens with 4 samples.

Results

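The pyruvate dehydrogenase complex and its control enzymes were followed at the RNA level in human A375 melanoma cells, an established line, under a medium-chain fatty acid. The 10 genes were chosen by symbol from the table of normalised read counts: the kinases PDK1, PDK2, PDK3 and PDK4, the phosphatase catalytic subunits PDP1 and PDP2, and the complex subunits PDHA1, PDHB, DLAT and PDHX. All 10 were among the 56832 genes of that table and all 10 were among the 20250 genes tested. Wild-type cells of this 1 line, grown in DMEM with serum, received either 1 mM octanoate or its vehicle isopropanol, and RNA was taken 48 h later, with 2 libraries per group. The labels do not say whether the libraries of a group came from separate cultures, so the p-values measure only the spread between these libraries, which may be technical. In RNA from whole cultures, fewer cells of a type and less RNA per cell cannot be told apart.

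Pyruvate dehydrogenase is the mitochondrial complex that turns pyruvate from glycolysis into acetyl-CoA and so links sugar breakdown to the citric acid cycle. The PDK kinases switch it off by phosphorylating serines of its alpha subunit, and the PDP phosphatases switch it on again by removing those phosphates. Fatty acids and pyruvate compete as fuels at this step, and PDK4 is the kinase best known to be raised by fasting and by fatty acids, through PPAR receptors.

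Of the 10 genes, 2 rose and 2 fell under octanoate: 3 of the 6 control enzymes and 1 of the 4 complex subunits. PDK4 rose 2.50-fold and PDK1 1.39-fold, while PDP1 went to 0.615 of its vehicle level. Of the 4 complex subunits only PDHX passed the test, at 0.857 of its vehicle level. These calls come from limma, a linear model fitted to log2(normalised count + 1) of all tested genes, at a Benjamini-Hochberg adjusted p under 0.05 (two-sided). By the same rule 29.9% of all tested genes were called, 16.2% higher and 13.7% lower, and 38.2% of the 9166 genes with a mean at least as high as that of PDK2, the lowest of the 10. The 4 calls among 10 (40.0%) are close to these shares, and the count alone says nothing particular about the group. Only PDK4 was both called and changed at least 2-fold, as were 4.21% of all tested genes. The median log2 difference of the 10 genes was 0.01, as it was for all tested genes (0.01).

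The libraries held between 67785956 and 78005035 recovered reads, and each of the 10 genes had between 850 and 15010 reads in every library. The labelled cell type was checked against markers. Of 8 melanocyte lineage genes, SOX10, MITF and S100B had a mean normalised count of at least 100, whereas the pigment genes PMEL, MLANA, DCT, TYRP1 and TYR had means under 100, so the lineage factors were present and pigment RNA was low. MITF had 3533 and 3330 normalised counts in vehicle and 2414 and 2511 in octanoate. S100B had 4234 and 3741 in vehicle and 1917 and 1746 in octanoate, and SOX10 had between 34072 and 41363 in all 4 libraries, with overlapping groups. Among the pigment genes PMEL was higher, with 65.8 and 65.9 normalised counts in vehicle and 98.2 and 95.4 in octanoate. DCT and TYR were lower in both octanoate libraries, and the groups overlapped for MLANA and TYRP1. The 3 keratinocyte markers summed to 949 and 1123 normalised counts in vehicle and to 221 and 269 in octanoate, with KRT1 at 0 in every library and the sum carried by KRT14. The 4 fibroblast markers summed to 1087 and 1111 in vehicle and to 902 and 918 in octanoate. COL1A1, COL1A2 and DCN were lower in both octanoate libraries, and the groups overlapped for LUM. The 3 endothelial markers, mainly PECAM1, summed to 201 and 207 in vehicle and to 338 and 347 in octanoate. PECAM1 and VWF were higher in both octanoate libraries, and the groups overlapped for CDH5. The 3 blood cell markers summed to 14.7 or less in every library. The part of these shifts in the results below was not tested.

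**Figure D1:**
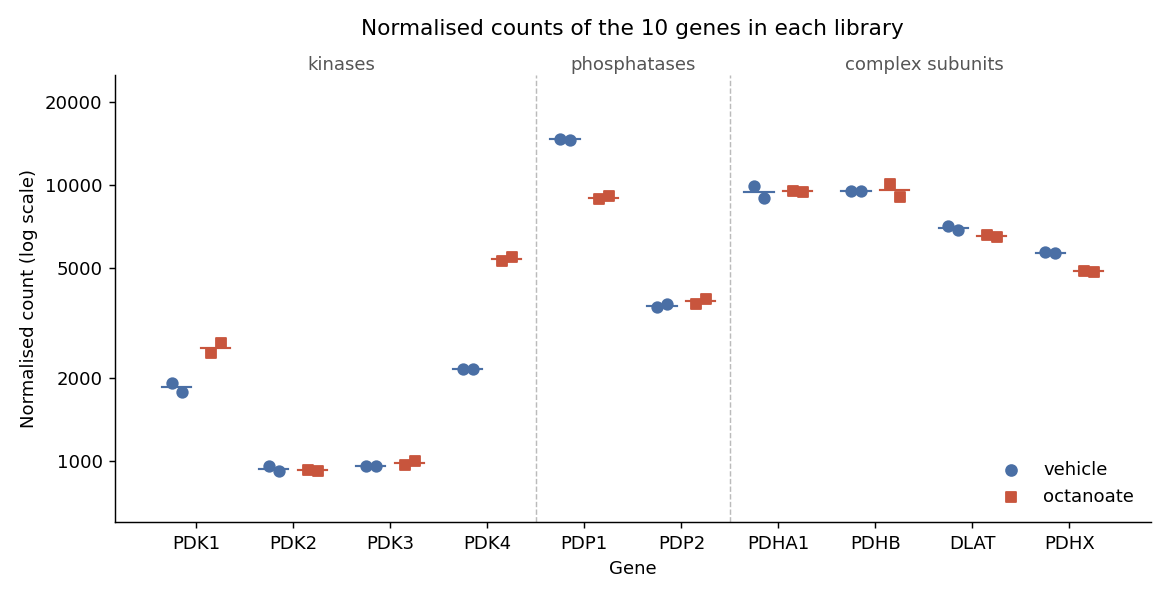
Normalised count of each of the 10 genes in each library on a log axis, with blue circles for vehicle, red squares for octanoate and a short line at each group's mean. PDK4 and PDK1 lie higher and PDP1 and PDHX lower in both octanoate libraries. Counts are not divided by gene length, so heights are comparable within a gene only.

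Among the kinases, PDK4 carried the largest change. Its normalised count was 2157 and 2147 with vehicle and 5288 and 5479 with octanoate. Both octanoate libraries thus lay far above both vehicle libraries, and the libraries of a group lay close together. The means were 2152 ± 7.42 and 5384 ± 135 (SD, n = 2 each). On the log2 scale the difference was 1.32 with an SE of 0.06, and the 95% interval of the fold ran from 2.29 to 2.73 (limma adjusted p 2.67e-14). Of all tested genes, 276 were called higher with a larger rise than PDK4. In GENCODE 29 PDK4 lies on the minus strand of chromosome 7 (hg38, 95583499 to 95596491), and no exon overlap or shared sequence with another gene was found for it.

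PDK1, which encodes the kinase known as a target of the hypoxia factor HIF-1, rose less. It had 1919.9 and 1782 normalised counts in vehicle and 2459 and 2669 in octanoate, with no overlap between the groups. The means were 1851 ± 97.7 and 2564 ± 148 (SD, n = 2 each). The difference on the log2 scale was 0.47 (SE 0.07, 95% interval 0.33 to 0.61, limma adjusted p 9.08e-06). The call for PDK1 was lost when the variance prior was fitted without a trend on expression level (limma adjusted p 0.0627). The gene lies on the plus strand of chromosome 2 (172555373 to 172608669), where 2.99% of its exon bases overlap an antisense gene.

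The other kinases showed no change past the test. PDK2, a widely expressed kinase of the family, had 959.95 and 917 normalised counts in vehicle and 926 and 921 in octanoate, so the octanoate values lay within the vehicle range. Its log2 difference was -0.02 (95% interval -0.18 to 0.14, limma adjusted p 0.865), which as a fold runs from 0.881 to 1.10. PDK2 lies on chromosome 17 (50094737 to 50112152). There 38.6% of its exon bases overlap SAMD14, which is read from the other strand. Whether reads were counted by strand is not given in the sources used here, and the same holds for the other overlaps given below. SAMD14 had 212 and 177 normalised counts in vehicle and 270.5 and 241 in octanoate, a log2 difference of 0.39 (limma adjusted p 0.0245). The part of SAMD14 reads in the PDK2 counts was not tested.

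PDK3 is the family member with the narrowest tissue range in textbook accounts. It had 959.95 and 956 normalised counts in vehicle and 970.2 and 1000.3 in octanoate. The octanoate libraries lay just above both vehicle libraries. The log2 difference of 0.04 (95% interval -0.12 to 0.20) did not pass the test (limma adjusted p 0.744). It was smaller than the limma SE of 0.08, which is drawn mostly from the spread of other genes. PDK3 lies on the X chromosome (24465221 to 24541862) and overlaps no other exon in GENCODE 29. In vehicle 1, PDK2 and PDK3 had the same recovered count, 978 reads each.

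To set the kinases that rose beside their promoters, the 250 bases before each annotated start were taken from RefSeq (GRCh38.p14), which lists 1 start for PDK4 and for PDK3, 2 for PDK1 and 3 for PDK2. Both strands were searched for 5 short motifs: the nuclear receptor half-site AGGTCA, the hypoxia response core ACGTG, the FOXO core GTAAACA, the CCAAT box and the TATA box TATAAA. The windows of PDK4 and PDK1 are shown 5′ to 3′ in the direction of transcription, because these are the kinases that rose, with motif matches in capitals. They are chr7:95596517-95596766 on the minus strand for PDK4, and chr2:172555123-172555372 and chr2:172555840-172556089 on the plus strand for the starts of PDK1.
PDK4: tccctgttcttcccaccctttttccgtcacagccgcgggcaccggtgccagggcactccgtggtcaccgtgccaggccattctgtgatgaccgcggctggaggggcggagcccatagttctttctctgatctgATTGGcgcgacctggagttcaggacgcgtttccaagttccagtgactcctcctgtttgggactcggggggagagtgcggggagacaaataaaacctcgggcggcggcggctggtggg
PDK1 first start: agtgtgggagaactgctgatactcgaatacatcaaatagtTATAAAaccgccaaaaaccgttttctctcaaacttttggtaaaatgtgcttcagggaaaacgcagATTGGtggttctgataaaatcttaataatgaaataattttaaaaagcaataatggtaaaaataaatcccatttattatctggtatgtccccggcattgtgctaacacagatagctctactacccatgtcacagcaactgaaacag
PDK1 second start: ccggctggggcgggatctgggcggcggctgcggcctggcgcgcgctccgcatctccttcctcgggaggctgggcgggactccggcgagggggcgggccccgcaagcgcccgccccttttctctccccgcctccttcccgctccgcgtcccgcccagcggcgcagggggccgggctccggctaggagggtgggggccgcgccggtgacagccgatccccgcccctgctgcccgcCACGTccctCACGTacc

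The PDK4 window held 1 CCAAT box in reverse (ATTGG in the printed strand) and no other match. The first PDK1 window held 1 TATA box and 1 CCAAT box, and the second held 2 hypoxia cores on the reverse strand, printed as CACGT, at positions -17 to -13 and -8 to -4 before the start. PDK3, which did not pass the test, also held 1 hypoxia core and 1 CCAAT box. The second of the PDK2 windows held 3 CCAAT boxes and 2 hypoxia cores, which overlap as 1 palindrome read on both strands. Neither the half-site nor the FOXO core matched in any of the 7 kinase windows. The same motifs were counted in 35114 RefSeq windows of this length, which leave out chromosome 8 and windows with undetermined bases. Of these windows, 12.1% held the half-site, 18.5% the hypoxia core, 2.98% the FOXO core, 32.0% the CCAAT box and 10.7% the TATA box. GC content was 62.8% in the PDK4 window, 35.6% and 79.6% in the PDK1 windows and 58.0% at the median of the 35114 windows. A match describes letters in the window only, and a missing match says nothing of sites outside it or spelled otherwise.

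The phosphatases oppose the kinases, and the main one fell. PDP1 encodes the calcium-stimulated catalytic subunit. Its normalised count was 14660.4 and 14542 in vehicle and 8848 and 9116 in octanoate, with every octanoate value below every vehicle value. The means were 14601 ± 83.5 and 8982 ± 190.0 (SD, n = 2 each). The log2 difference of PDP1 was -0.70 (SE 0.06, limma adjusted p 6.18e-10), a fold of 0.615 with a 95% interval from 0.568 to 0.666. Of all tested genes, 508 were called lower with a larger fall. PDP1 lies on the plus strand of chromosome 8 (hg38, 93857807 to 93926066). It overlaps no other exon in GENCODE 29 and shares no long stretch of sequence with another gene.

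PDP2, the phosphatase subunit linked to insulin in background accounts, had 3619.9 and 3686 normalised counts in vehicle and 3706 and 3861 in octanoate. The octanoate libraries were slightly higher without overlap, but the log2 difference of 0.05 (95% interval -0.07 to 0.17) did not pass the test (limma adjusted p 0.578). PDP2 lies on chromosome 16 (66878589 to 66895754). The groups did not overlap for 7 of the 10 genes, against 63.1% of all tested genes, so a gap of this kind between 2 libraries and 2 others carries little weight by itself. With 2 libraries a group, the smallest two-sided p that an exact permutation test allows is 0.333.

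The subunits of the complex itself moved little. PDHA1, the alpha subunit that carries the regulatory serines, had 9866 and 8932 normalised counts in vehicle and 9489.7 and 9417 in octanoate. The octanoate values lay between the vehicle values, and the log2 difference was 0.01 (95% interval -0.11 to 0.13, limma adjusted p 0.922). PDHB, the beta subunit, had 9493 and 9479 in vehicle and 10081 and 9005 in octanoate, here with the vehicle values inside the octanoate range. Its log2 difference was also 0.01 (95% interval -0.12 to 0.13, limma adjusted p 0.953). As a fold, the interval ran from 0.925 to 1.10 for PDHA1 and from 0.921 to 1.10 for PDHB. PDHA1 lies on the X chromosome (19343893 to 19361705) and PDHB on chromosome 3 (58427630 to 58433857). In GENCODE 29, 21.3% of the PDHA1 exon bases overlap MAP3K15 on the opposite strand, which had between 19.6 and 32.0 normalised counts per library.

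DLAT encodes the acetyltransferase that forms the core of the complex. It had 7101 and 6865 normalised counts in vehicle and 6579 and 6481 in octanoate. Both octanoate libraries were lower, but the log2 difference of -0.10 (95% interval -0.21 to 0.02) did not pass the test (limma adjusted p 0.214). DLAT and PDHX both lie on chromosome 11 (112024814 to 112064390 and 34915829 to 35020591). PDHX encodes the protein that anchors dihydrolipoamide dehydrogenase to that core, and it was the subunit that fell. Its normalised count was 5728 and 5639 in vehicle and 4891 and 4845 in octanoate, with a clear gap between the groups. The means were 5683 ± 63.4 and 4868 ± 32.0 (SD, n = 2 each). The difference on the log2 scale was -0.22 (SE 0.06, 95% interval -0.34 to -0.10, limma adjusted p 0.00442). Without a trend in the variance prior that adjusted p was 0.111 (limma), so the call depends on this setting. APIP, whose exons overlap 6.89% of the PDHX exon bases on the opposite strand, had between 3106 and 3355 normalised counts and no called change (limma adjusted p 0.438).

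**Figure D2:**
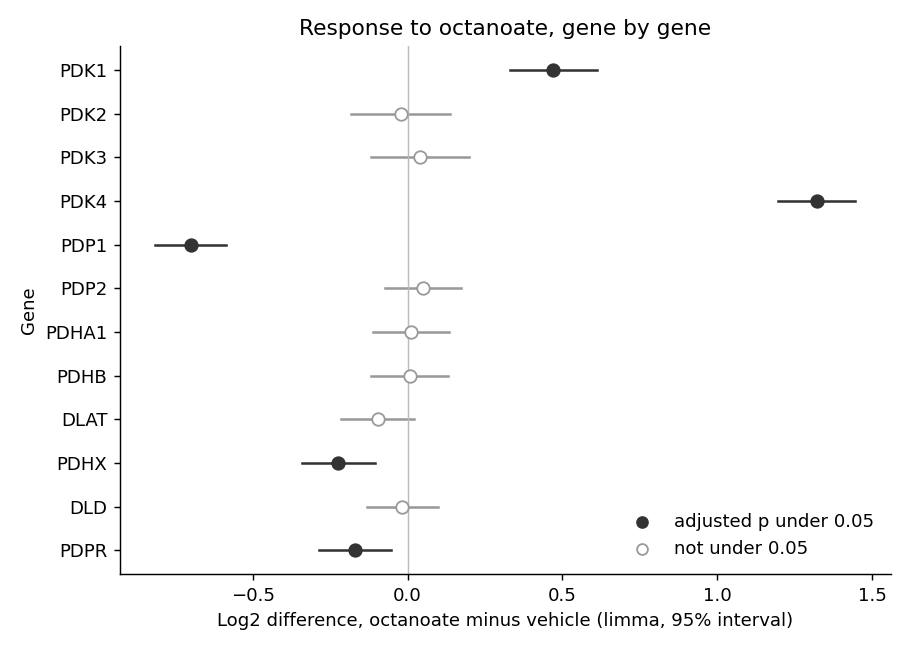
Log2 difference (octanoate minus vehicle) of the 10 genes and of DLD and PDPR, with the 95% interval from limma. Filled points had an adjusted p under 0.05. PDK4 (1.32) and PDP1 (-0.70) stand farthest from 0 on opposite sides.

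The remaining genes of the complex were read from a separate list. DLD, the dihydrolipoamide dehydrogenase shared with other complexes, had a log2 difference of -0.02 (limma adjusted p 0.854). PDPR, the regulatory subunit of the phosphatase, had 7002 and 7049 normalised counts in vehicle and 6275 and 6229 in octanoate, a log2 difference of -0.17 (limma adjusted p 0.0261). The PDPR count is uncertain, because the gene shares 2186 bases at 98.6% identity with another gene in GENCODE 29. PDHA2, the testis form of the alpha subunit, was listed at 0 in every library.

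Levels of different genes can be compared only per length, here as normalised count per kilobase of exon (all exons of the gene in GENCODE 29). In vehicle, PDP1 had the highest level per kilobase of the 10 genes, 2606 ± 14.9 (SD, n = 2). PDHA1 with 2092 ± 147 and PDHB with 2011 ± 2.01 followed, and their libraries overlapped. PDHX had 1512 ± 16.9, DLAT 1446 ± 34.6, PDK4 476 ± 1.64 and PDP2 437 ± 5.62 per kilobase. The other kinases were lowest, with 193.5 ± 0.53 for PDK3, 171 ± 5.60 for PDK2 and 124 ± 6.57 for PDK1. In octanoate PDP1 had 1603 ± 33.9, behind PDHA1 and PDHB, and PDK4 reached 1191 ± 29.9 per kilobase. PDK1 rose past PDK2 there, 172 ± 9.97 against 168.5 ± 0.618, but their libraries overlapped.

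Read as pools per kilobase, the balance between kinase and phosphatase RNA differed between the groups. The 4 kinases summed to 975 and 955 in vehicle and to 1700.4 and 1762 in octanoate. The 2 phosphatase subunits summed to 3049 and 3036 in vehicle and to 2022 and 2089 in octanoate. The ratio of kinase to phosphatase RNA was 0.320 and 0.315 under vehicle and 0.841 and 0.844 under octanoate. PDK4 made up 48.9% and 49.7% of the kinase pool in vehicle and 68.8% and 68.8% in octanoate. PDP1 made up 85.8% and 85.5% of the phosphatase pool in vehicle and 78.1% and 77.9% in octanoate. These sums are descriptions with no test, and they measure RNA, not enzyme.

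**Figure D3:**
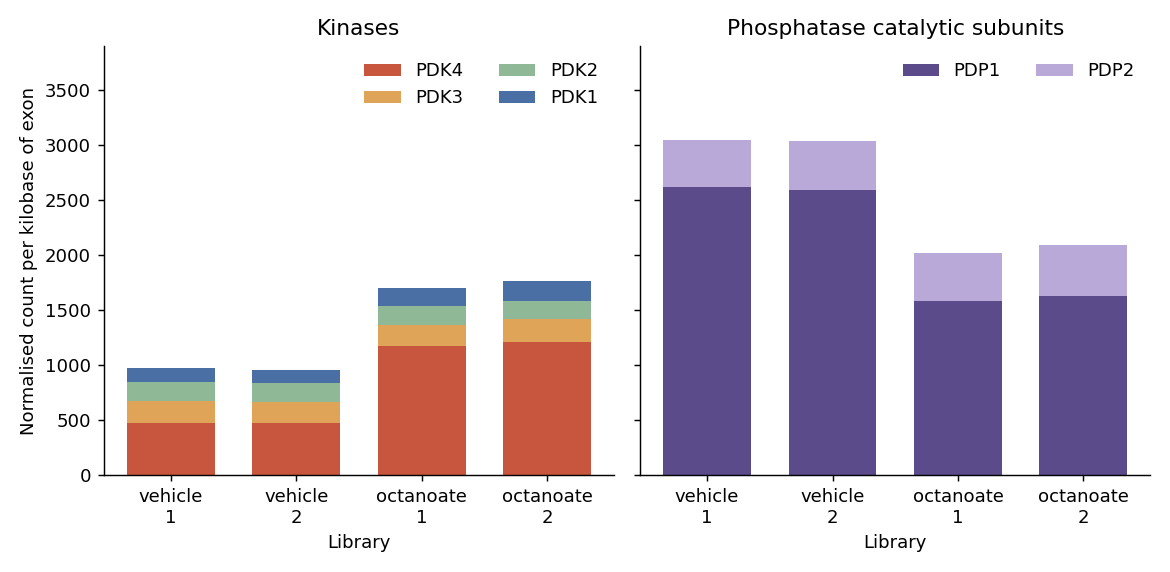
Normalised count per kilobase of exon in each library, stacked for the 4 kinases (left) and the 2 phosphatase catalytic subunits (right) on a shared linear axis from 0. The kinase stack grows in both octanoate libraries through PDK4, and the phosphatase stack shrinks through PDP1.

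The order of the levels depends on the length used. With the length of the longest transcript, PDP1 and PDHA1 again came first in vehicle, PDHX with 2142 per kilobase came just above PDHB with 2127, and PDK2 with 273 came above PDK3 with 203. In octanoate with that length, PDK4 with 1506 per kilobase came above DLAT with 1465, and PDK1 with 181 stayed below PDK2 with 268. The kinase to phosphatase ratio with that length was 0.315 and 0.310 in vehicle and 0.834 and 0.836 in octanoate. With the median length of the protein-coding transcripts in place of all exons, a choice made after the data were seen, PDHB came first in vehicle with 6364 per kilobase, and PDK1 had 619, next to PDK4 with 602 and overlapping it. PDK1 has long annotated exons (14883 bases in all), which lowers its level per kilobase. With this median length the kinase to phosphatase ratio was 0.447 and 0.435 in vehicle and 1.03 and 1.04 in octanoate, and PDK4 made up 28.1% and 28.9% of the kinase pool in vehicle and 46.3% and 46.0% in octanoate.

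The 5 lists of genes of connected steps were written from general knowledge, but with earlier results of these data known. No list was tested as a set. The lists held 58 genes in all, of which 56 were tested. Limma called 16 of them higher and 7 lower, 41.1%, against 29.9% of all tested genes and 38.2% of the genes at least as abundant as PDK2. This count was 15 without vehicle 2, 9 with no filter on low counts and 4 without a trend in the variance prior. The 4 genes ACSS1, MYC, PC and PPARGC1B were called under all 16 alternative settings, whereas ME3 was called under 9 and PDPR and PPARG under 10.

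Of 12 tested genes of pyruvate entry and lipoate attachment, 1 was called (8.33%, against 29.9% of all tested genes). Their median log2 difference was 0.02. MPC2, a subunit of the mitochondrial pyruvate carrier, had 1667 and 1602 normalised counts in vehicle and 2000.2 and 1808 in octanoate, a log2 difference of 0.22 (limma adjusted p 0.0209). Its partner subunit MPC1 had a log2 difference of -0.12 (limma adjusted p 0.237). MPC2 exons overlap DCAF6 over 575 bases on the opposite strand. The lowest value of the list was that of LIPT2, a lipoyl(octanoyl) transferase gene named here after its values were seen, with 104 and 95.9 normalised counts in vehicle and 69.3 and 74.8 in octanoate. Its log2 difference of -0.47 did not pass the test (limma adjusted p 0.0578). FDX2, filed under its older symbol FDX1L, was too low to be tested. Its count is uncertain, because 972 of its exon bases overlap AC011511.1 on the same strand.

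Of 9 genes of the sister complexes that also use lipoate, 2 rose and 1 fell (33.3% called, against 29.9% of all tested genes). Their median log2 difference was 0.02. OGDH, the first enzyme of the 2-oxoglutarate dehydrogenase complex of the citric acid cycle, rose by a log2 difference of 0.31 (limma adjusted p 0.000289). Its relative OGDHL went from 262 and 198 normalised counts to 358 and 341, a log2 difference of 0.62 (limma adjusted p 0.000612). BCKDHB, the beta subunit of the branched-chain keto acid dehydrogenase, fell, with a log2 difference of -0.35 (limma adjusted p 0.00158). Its kinase BCKDK had a log2 difference of -0.01 (limma adjusted p 0.957) and its phosphatase PPM1K one of 0.16 (limma adjusted p 0.110), neither past the test.

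Among 13 genes of other fates of pyruvate and sources of acetyl-CoA, 5 rose and 3 fell (61.5% called). The share called was 29.9% over all tested genes and 38.2% over those at least as abundant as PDK2. The list had a median log2 difference of 0.09. PC, pyruvate carboxylase, which makes oxaloacetate from pyruvate, had 4403 and 4075 normalised counts in vehicle and 6252 and 5964 in octanoate, a log2 difference of 0.53 (limma adjusted p 2.96e-07). Its exons overlap LRFN4 over 621 bases on the opposite strand. PCK2, the mitochondrial enzyme that turns oxaloacetate into phosphoenolpyruvate, rose by a log2 difference of 0.59 (limma adjusted p 4.16e-07). The alanine transaminase GPT2 (0.29) and the mitochondrial malic enzymes ME2 (0.21) and ME3 (0.24) also rose on the log2 scale, and the limma adjusted p of ME3 was 0.0485. ACSS1, the mitochondrial acetyl-CoA synthetase, fell from 2579 and 2408 to 1667 and 1518 normalised counts, a log2 difference of -0.65 (limma adjusted p 1.05e-07). ACLY, which makes cytosolic acetyl-CoA from citrate, had a log2 difference of -0.24 (limma adjusted p 0.00257). LDHA, the lactate dehydrogenase subunit, had one of -0.19 (limma adjusted p 0.0276), and shares sequence with pseudogenes such as LDHAP4 (998 bases), so its count is uncertain.

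Of 20 transcription factors and signalling genes known to act on PDK genes, 8 rose and 2 fell, with a median log2 difference of 0.12. These 10 calls among 20 are to be read beside the share called over all tested genes, 29.9%. That share was 38.2% over the genes at least as abundant as PDK2. Whether this list differed from other genes as a set was not tested. The PPAR receptor genes were not among the risers: PPARA (log2 difference -0.08, limma adjusted p 0.437) and PPARD (-0.10, limma adjusted p 0.373) did not pass, and PPARG fell, at -0.16 (limma adjusted p 0.0397). RXRA, which encodes their partner receptor, fell, with a log2 difference of -0.21 (limma adjusted p 0.0128). These are RNA levels, and the activity of the receptors was not measured. The coactivator gene PPARGC1B rose by 0.47 (limma adjusted p 3.36e-05), whereas PPARGC1A had under 100 normalised counts and no call (limma adjusted p 0.525). ESRRA, an orphan receptor of energy metabolism, rose by a log2 difference of 0.33 (limma adjusted p 0.000847), and 284 of its exon bases overlap TRMT112 on the opposite strand. ESRRA also shares 533 bases at 96.2% identity with ESRRAP1.

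HIF1A, whose protein is set mainly after transcription, had a log2 difference of 0.04 (limma adjusted p 0.652). MYC rose by 0.65 (limma adjusted p 1.94e-07), CEBPB by 0.61 (limma adjusted p 2.12e-05, with 0.42 to 0.80 over the 16 alternatives) and E2F1 by 0.47 (limma adjusted p 6.86e-06) on the log2 scale. The insulin pathway genes IRS2 (0.48, limma adjusted p 6.60e-07) and INSR (0.21, limma adjusted p 0.0151) rose as well, as did STAT5B (0.23, limma adjusted p 0.00631). STAT5B shares 791 bases at 97.2% identity with STAT5A, so its count is uncertain. STAT5A had a log2 difference of -0.06 (limma adjusted p 0.525). FOXO1 had a log2 difference of 0.20 and did not pass (limma adjusted p 0.0612).

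**Figure D4:**
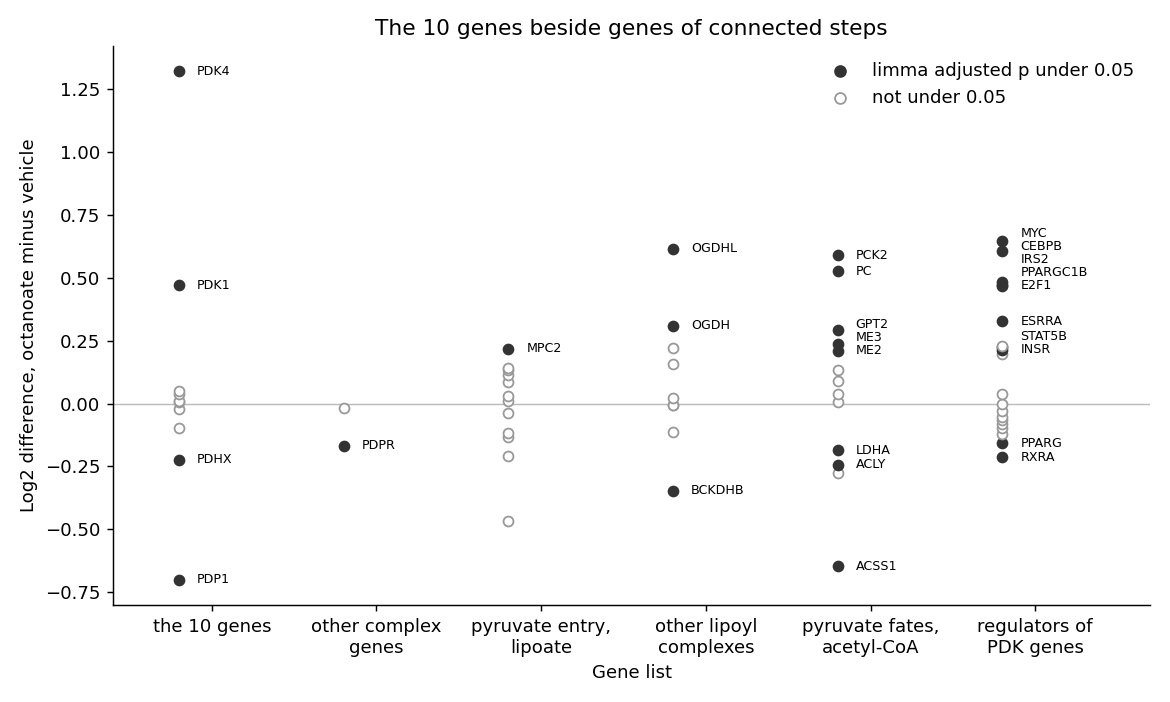
Log2 difference (octanoate minus vehicle) of the 10 genes and of the 5 lists of connected steps, 1 point per tested gene. Filled, named points had a limma adjusted p under 0.05. No gene of the lists reaches PDK4 or PDP1, and the lists range from -0.65 to 0.65.

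The genes whose 4 values were most like those of PDK4 were sought among 13481 tested genes with a mean of at least 100, as the smallest distance between log2 values centred on each gene's mean over the 4 libraries. Among the nearest were ADGRL4 (distance 0.02), JAG1 (0.05), NAV3 (0.05) and RP5-1059L7.1 (0.06). ADGRL4, an adhesion receptor gene, had 543 and 539 normalised counts in vehicle and 1343 and 1361 in octanoate. JAG1, a Notch ligand gene, had 1786 and 1719 in vehicle and 4323 and 4337 in octanoate. For PDP1 the nearest were SEC14L2 (0.01), ZNF608 (0.03), TBX10 (0.04), PTCH1 (0.04) and RHOJ (0.04). SEC14L2, a lipid-binding protein gene, had 1351 and 1333 normalised counts in vehicle and 806 and 832 in octanoate. With 4 libraries in 2 groups, such likeness mostly reflects a log2 difference of the same size.

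In the authors' deposited table the same 4 of the 10 genes had an adjusted p under 0.05. The log2 fold changes in the authors' deposited table were 1.32 for PDK4, 0.47 for PDK1, -0.70 for PDP1 and -0.22 for PDHX. The largest difference between the log2 values of the authors' deposited table and of limma over the 10 genes was 0.0025, for PDHB. Of the 23 list genes called by limma, CEBPB, MPC2 and ME3 did not pass in the authors' deposited table, with adjusted p values of 0.0585, 0.0537 and 0.188.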

How the data were processed

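RNA was sequenced from 4 libraries of A375 cells. Per the submitters' processing notes, bcl2fastq 2.17, Trim Galore, STAR 2.4, Picard, HTSeq 0.9.1, DESeq2 and the build hg38 were used, with no role or order given. The deposited signal is a read count per gene divided by 1 size factor per library (DESeq2, per the file headers and name). Gene length and GC content were not corrected for. Every positive value was a whole multiple (tolerance 1e-06) of the library's smallest positive value, 100% of values per library, so whole reads were recovered by division. The authors' deposited table of the comparison holds per gene the test score, the p-value before and after adjustment, the log2 fold change and its SE.

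The normalised counts of the 20250 genes with a mean of at least 10 were turned into log2(normalised count + 1) and compared between groups by limma (version 3.58.1, R 4.3.3; variance prior with an intensity trend). SDs are over 2 libraries. SEs and intervals are those of limma, with a variance drawn mostly from other genes (prior degrees of freedom 21.2). Recovered totals were 76922530 and 74648605 reads in vehicle and 78005035 and 67785956 in octanoate. Alternatives were other pseudocounts, filters and scalings, no trend, a replicate block, leaving out each library, edgeR 4.0.16 and DESeq2 1.42.0 on recovered reads, and genes found in GENCODE 29, as they are or after a correction for GC content and length. On recovered reads edgeR called 6480 genes and DESeq2 4947. The fit was tested on simulated data, where it found the changes put in and made somewhat more false calls than the adjusted p threshold names. The changes put in were larger than those of PDK1 and PDHX and lay in abundant genes only, so smaller changes were not covered. Shared sequence was searched with blastn 2.17.0 at 95% identity over at least 100 bases. The 10 genes and the lists were chosen with earlier results of these data known. All 10 genes are named, with every called list gene and the 5 genes nearest to the member with the largest change and to the called member of opposite sign. One of these nearest genes is not reported here.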

Additional observations from a re-analysis of the deposited data

How the results depend on the processing

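Of the 16 alternatives, 4 leave out a library. There 1 group has 1 library, which is assumed to vary like the other group, so these fits are a weak check. In those without an octanoate library the prior degrees of freedom were infinite, so a gene's own spread played no part. PDK4 and PDP1 kept their direction and their call under all 16, with log2 differences of 1.30 to 1.35 and of -0.72 to -0.68. PDK1 (0.41 to 0.53) and PDHX (-0.23 to -0.21) kept theirs under 15 and were not called without an intensity trend, where the prior shares less information between genes (prior degrees of freedom 1.57 against 21.2). That setting called 1625 genes in all, 2 of the 10 genes and 4 list genes. With no filter on low counts 2595 genes and 9 list genes were called. Leaving out each library in turn gave 4295 to 4757 called genes, 4 of the 10 genes each time and 15 to 19 list genes. The 6 other genes were called under no alternative. Small log2 differences changed sign when 1 library was left out: PDK2 ranged from -0.056 to 0.011 (positive without vehicle 1), PDHA1 from -0.062 to 0.082 (negative without vehicle 2) and PDHB from -0.075 to 0.088 (negative without octanoate 1). PDHB was also -0.00092 with equal column totals. The cause was not tested. By name 74.8% of the tested genes match GENCODE 29, so for the whole table the GC content and length correction is void; all 10 genes have a match.

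What a replicate number stands for is not in the labels, and deviations of same-numbered libraries had a correlation of 0.13 over the tested genes and of 0.27 over those with a mean of at least 100, as all 10 genes have. The fit with a replicate block called 8376 genes, among them 4 of the 10 genes and 29 list genes.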
